A study of Mus musculus with 63 samples.

Results

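Heart RNA of the mouse strain WSB was compared directly with heart RNA of the strain B6. The comparison used the 8 libraries named WSB and the 8 named B6 of a count table that holds 63 libraries from 8 inbred strains, the founders of Diversity Outbred mice. WSB is a strain derived from wild house mice, and B6 is the black laboratory strain whose genome is the mouse reference. All 16 libraries came from the heart of mice kept on a high-fat, high-sugar diet, given in the labels as 45% fat. Both groups share this diet, so no value here compares diets. The labels used here name no sex, age or transgene for either strain. RNA was taken from frozen and pulverised tissue, and polyadenylated RNA was selected before library construction. The labels do not state that the libraries of a strain are from separate animals, so the p-values measure the spread between these libraries. Libraries are named by strain and number, so that WSB_1 is replicate 1 of WSB.

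Heart muscle lives mainly on the oxidation of fatty acids, and its respiratory chain is built from subunits encoded partly by the mitochondrial genome and partly by the nucleus. The heart also holds endothelial cells, fibroblasts and resident macrophages, and the macrophages present antigen on MHC class II molecules. Interferons induce a shared set of antiviral genes in all of these cells, and heat shock factors induce chaperone genes when proteins misfold. Each inbred strain is fixed for its own alleles, and the part of these alleles in the differences given here was not tested. In RNA of a whole tissue sample, fewer cells of a type and less RNA per cell cannot be told apart.

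Depth was similar in both strains, and 1 library stood apart. Each library held between 24.7 M and 32 M counts (median 28.6 M). The heart myosin gene Myh6 lay between 13423 and 35413 CPM (a count per M counts of the library, after TMM scaling) in all 16 libraries, as a check of the tissue. The lowest of these was WSB_1, and the other WSB libraries lay between 30789 and 35413 CPM. WSB_1 had a TMM scaling factor of 1.19, against 0.909 to 1.07 in the others, and its median correlation with its own strain was 0.927, where the other libraries were at 0.9815 or above. Its genes with transcripts of at least 5000 bases (659 genes) lay at a median of -0.47 log2 units from the WSB mean, and those under 1000 bases (3964 genes) at 0.11. Across 1076 genes that range widely among strains, WSB_1 correlated at r = 0.904 with the WSB mean and at 0.687 with the next strain, 129, so its strain matched its label. The counts over all genes and a part of the other results are therefore given with and without WSB_1. B6_7 stood apart in clock genes, with Dbp at 79.7 CPM and Arntl at 1.80 CPM, against 1.34 to 3.70 and 23.8 to 33.1 CPM in the other B6 libraries. Among WSB libraries, WSB_9 had the highest Dbp, at 9.21 CPM, and the lowest Arntl, at 19.2 CPM. The other WSB libraries lay between 0.987 and 2.79 CPM for Dbp and between 20.2 and 36.6 CPM for Arntl. Xist was high and Y-linked genes were near 0 in 4 libraries of each strain, and the reverse held in the other 4.

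**Figure D1:**
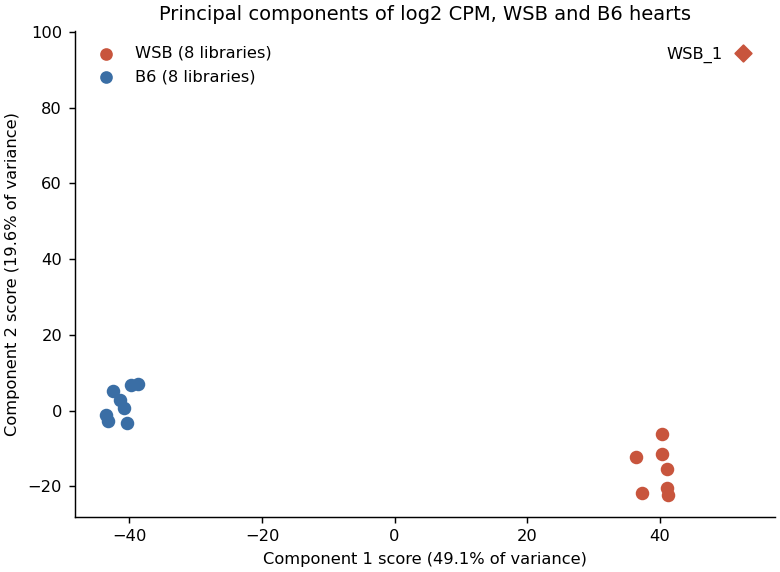
Scores of the 16 libraries on components 1 and 2 of log2 CPM over the genes tested, with B6 in blue and WSB in red. Component 1 holds 49.1% of the variance and separates the strains, and component 2 holds 19.6% and sets WSB_1 (diamond, score 94.3) apart from the other 15 libraries.

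Many genes differed between the strains, in both directions about equally. Of 14613 genes tested, 4310 (29.5%) passed edgeR's quasi-likelihood test at a Benjamini-Hochberg adjusted p of 0.05. Of these, 2121 (14.5%) were higher in WSB and 2189 (15.0%) were lower. Differences of at least 2-fold were found for 507 higher and 594 lower genes. Every WSB library lay above every B6 library for 705 genes (4.82%) and below for 1013 (6.93%). The median absolute log2 fold change over all genes was 0.20, and the median log2 fold change was 0.01. Without WSB_1, 6374 genes (43.6%) passed, 3179 (21.8%) higher and 3195 (21.9%) lower. Of the 4310 genes, 4231 passed again, 4230 of them in the same direction, while 79 no longer passed and 2143 others did. Differences of at least 2-fold then numbered 447 and 652, and 1193 and 1300 genes had no overlap between libraries.

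Several genes with known products were far higher in WSB. Cwc22, which encodes a spliceosome-associated protein (ENSMUSG00000027014, chromosome 2, 77881159 to 77946375, GRCm38), had a mean over all 16 libraries of 6.50 log2 CPM. Its WSB libraries ran from 614 to 1109.7 CPM with a median of 687, and its B6 libraries from 10.1 to 13.4 CPM with a median of 11.1. The strains were far from overlapping, and WSB_1 was the highest WSB library, with the other 7 between 614 and 708 CPM. The mean was 726 ± 158 CPM in WSB against 11.5 ± 1.13 CPM in B6 (SD, n = 8 each), a log2 fold change of 5.98 ± 0.14 (SE, edgeR adjusted p = 8.32e-16), and 5.87 ± 0.06 without WSB_1. In the other 6 strains, on the scale of all 63 libraries, the Cwc22 means lay between 9.36 and 16.4 CPM, so the high level was seen in WSB alone among these strains.

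Cyp2b10, which encodes a cytochrome P450 of foreign-compound metabolism (chromosome 7, 25897620 to 25926624), ran from 12 to 34.5 CPM in WSB (median 27.7) and from 0.291 to 1.42 CPM in B6 (median 0.770). Its log2 fold change was 5.05 ± 0.26 (SE, adjusted p = 5.03e-11). The groups did not overlap even with WSB_1, which was the lowest WSB library. Among the other strains, NOD had a Cyp2b10 mean of 25.95 CPM and the rest lay at 2.53 CPM or below. Fmn1, which encodes the actin-nucleating protein formin (chromosome 2, 113327736 to 113716767), ran from 17.8 to 126 CPM in WSB (median 96.8) and from 1.79 to 3.76 CPM in B6 (median 2.91). Here too WSB_1 was the lowest WSB library, and the other 7 were between 69.1 and 126 CPM. For Fmn1 it was B6 that stood with few strains: 129 was at 1.97 CPM, while AJ, Cast, NOD, NZO and PWK lay between 87.4 and 157 CPM. The log2 fold change was 4.92 ± 0.31 (adjusted p = 7.46e-10).

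Edn3, which encodes the vasoactive peptide endothelin-3 (chromosome 2, 174760619 to 174784042), ran from 5.26 to 15.1 CPM in WSB (median 13.6) and from 0.693 to 1.79 CPM in B6 (median 1.42), a log2 fold change of 3.13 ± 0.21 (adjusted p = 1.52e-09). The gene of a receptor for endothelins, Ednra, was higher as well (95.1 ± 30.0 against 42.2 ± 4.89 CPM, SD, n = 8 each, log2 fold change 1.17 ± 0.18, adjusted p = 5.47e-05). Its groups overlapped through WSB_1 at 39.4 CPM, and the other 7 WSB libraries lay between 72.1 and 139 CPM, above the highest B6 library at 49.0 CPM. Ano10, a gene of the anoctamin family of membrane proteins, was at 197 ± 44.0 CPM in WSB against 23.4 ± 2.32 CPM in B6 (log2 fold change 3.07 ± 0.12, adjusted p = 1.56e-12). The Ano10 mean was also high in PWK (152 CPM) and lay between 17.4 and 31.0 CPM in the other 5 strains. Cit, which encodes citron kinase of cell division, was at 18.0 ± 6.49 against 2.81 ± 0.586 CPM (2.68 ± 0.19, adjusted p = 3.77e-09), with WSB_1 the highest at 33.2 CPM and the other WSB libraries between 13.5 and 18.8 CPM.

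Among the genes lower in WSB, Pttg1, Rab6b and Cyfip2 had a far higher mean in B6 than in any other strain. Pttg1, which encodes securin, a regulator of sister chromatid separation (ENSMUSG00000020415, chromosome 11, 43420250 to 43426251), ran from 0.697 to 1.57 CPM in WSB (median 1.09) and from 35.2 to 42.4 CPM in B6 (median 39.3). The libraries of each strain were close together and WSB_1 lay within the WSB range. The log2 fold change was -5.13 ± 0.12 (SE, adjusted p = 1.04e-15) and -5.20 ± 0.10 without WSB_1. The other 6 strains had Pttg1 means between 1.15 and 2.62 CPM. Rab6b, which encodes a small GTPase of Golgi transport (chromosome 9, 103111787 to 103185276), showed the same order: 1.29 ± 0.735 CPM in WSB and 22.7 ± 2.76 CPM in B6 (SD, n = 8 each), with 1.14 to 2.40 CPM in the other strains. Its log2 fold change was -4.12 ± 0.24 (adjusted p = 2.96e-10). Cyfip2, which encodes a member of the WAVE complex that controls actin branching (chromosome 11, 46193850 to 46312859), was at 30.6 ± 10.6 against 233 ± 8.61 CPM (-2.93 ± 0.22, adjusted p = 6.88e-09), and no other strain had a mean above 32.5 CPM. Of these 3 genes, Pttg1 and Cyfip2 lie within the 10-Mb stretch of chromosome 11 described further on.

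Metabolic and channel genes were also among the largest decreases. Ogdhl, which encodes a relative of the oxoglutarate dehydrogenase of the citric acid cycle (chromosome 14, 32322019 to 32347820), ran from 1.74 to 6.60 CPM in WSB (median 3.34) and from 77.3 to 129 CPM in B6 (median 111). Its log2 fold change was -4.80 ± 0.24 (adjusted p = 3.29e-11). The strains fell on 2 levels for Ogdhl, with AJ, NOD and NZO between 75.3 and 135 CPM beside B6, and 129, Cast and PWK between 0.861 and 4.0 CPM beside WSB. Stbd1, which encodes a glycogen-binding protein, was at 0.801 ± 0.268 CPM in WSB against 9.33 ± 1.91 CPM in B6 (-3.54 ± 0.18, adjusted p = 3.91e-11). Cacna1h, which encodes a T-type calcium channel (chromosome 17, 25374285 to 25433783), ran from 1.62 to 3.82 CPM in WSB (median 2.30) and from 14.9 to 33.7 CPM in B6 (median 27.0). The 2 groups did not overlap, and among the other strains only PWK, at 21.3 CPM, had a mean above 6.25 CPM. The log2 fold change of Cacna1h was -3.38 ± 0.20 (adjusted p = 3.43e-10).

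Lgr6, Egf and Il15 were also far lower. Lgr6, which encodes a receptor for R-spondins, was at 6.97 ± 2.66 CPM in WSB against 59.4 ± 5.35 CPM in B6 (-3.09 ± 0.18, adjusted p = 1.95e-10). The growth factor gene Egf was at 1.61 ± 0.416 against 13.1 ± 1.96 CPM (-3.02 ± 0.14, adjusted p = 1.78e-11). Il15, which encodes a cytokine that maintains natural killer cells and memory T cells, was at 2.30 ± 0.536 against 15.6 ± 1.87 CPM (-2.75 ± 0.13, adjusted p = 1.28e-11). For Lgr6, Egf and Il15 no WSB library reached the lowest B6 library, and leaving out WSB_1 gave -3.02, -2.97 and -2.85.

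**Figure D2:**
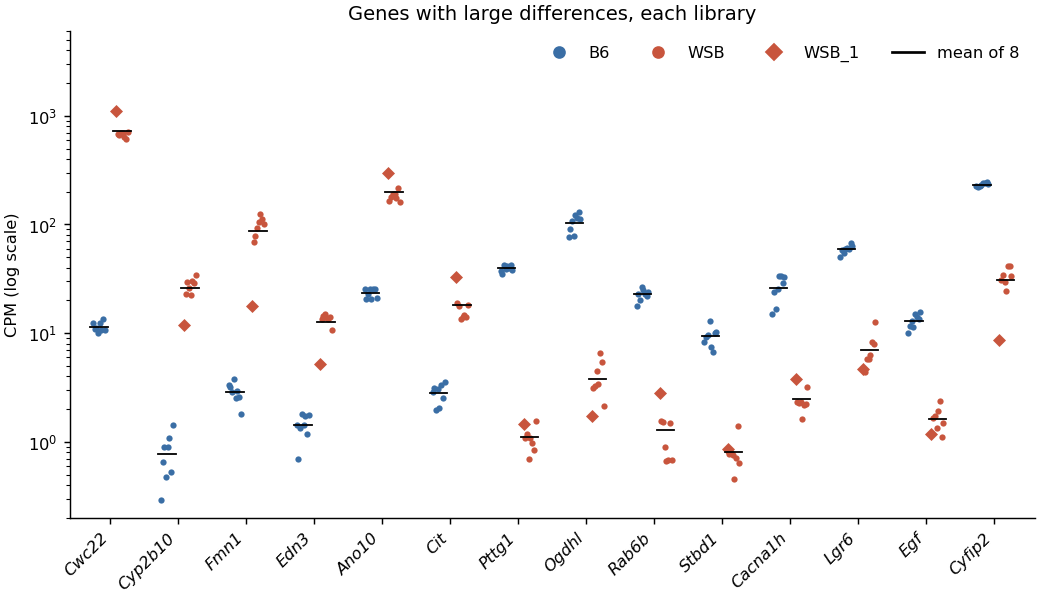
CPM of 14 genes in each library on a log axis, with B6 in blue, WSB in red, WSB_1 as a diamond and the mean of 8 libraries as a black line. For each gene the WSB and B6 points do not overlap, and WSB_1 is the lowest WSB library for Cyp2b10, Fmn1, Edn3, Ogdhl and Cyfip2 and the highest for Cwc22, Ano10, Cit, Rab6b and Cacna1h.

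Some genes had counts in 1 strain only. At most 3 counts over all 8 libraries of 1 strain were found for 10 genes higher in WSB and 8 higher in B6. Zfp738, a zinc finger gene (chromosome 13, 67667437 to 67687071), had 0 counts in WSB and 1491 in B6, where libraries ran from 5.14 to 8.14 CPM. It was at least 553-fold lower in WSB, against a floor of 3 counts over the group. The other 6 strains had Zfp738 means between 3.36 and 5.78 CPM. The sum with Gm26587, which shares transcript sequence with Zfp738 on the opposite strand, was still at 0 in WSB. Ifi202b, an interferon-inducible gene of the family of cytosolic DNA sensors (chromosome 1, 173962568 to 173982744), had 0 counts in B6 and 1167 in WSB, where libraries ran from 4.14 to 6.80 CPM, and was at least 343-fold higher. Among the other strains Cast was also at 0, and the rest lay between 3.27 and 13.3 CPM. Ly6c1, which encodes a surface antigen of endothelium and leukocytes, had 2 counts in WSB and 14100 in B6, a ratio of 7900 (exact 95% interval 2190 to 65300, counting error only). Its relatives share sequence, and the summed counts of Ly6c1, Ly6c2 and Ly6a differed by -0.52 ± 0.26 (SE, adjusted p = 0.138), and at -0.92 ± 0.10 the sum passed the test without WSB_1. Ly6c1 and Ly6c2 without Ly6a differed by -8.15. The share of reads that belongs to Ly6c1 is uncertain.

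Several other large fold changes did not hold once near-identical copies were summed. The haemoglobin gene Hba-a1 was at 7.38 alone and -0.08 ± 0.23 summed with Hba-a2 (log2 fold change ± SE). Amd2 was at 6.02 alone and 0.18 ± 0.14 with its copies, and Rpl12 at 4.14 alone and 0.01 ± 0.13. None of these 3 sums passed the test with all libraries (adjusted p = 0.383 to 0.96), and without WSB_1 the Rpl12 sum did, at -0.14. Abhd1 was at 4.09 alone and 0.855 ± 0.06 together with Preb, a gene with which it shares transcript sequence, and Trim12a at -3.95 alone and -0.77 ± 0.08 with its copies. The last 2 sums passed the test, with adjusted p = 6.28e-09 and 3.85e-07.

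Antigen presentation genes were lower in WSB hearts. All 8 tested members of the MHC class II list were lower, where 15.0% of all genes were, and their median log2 fold change was -1.99 against 0.01 over all genes tested. H2-Eb1, which encodes a chain of the class II molecule that displays peptides to T helper cells (ENSMUSG00000060586, chromosome 17, 34305877 to 34316199), ran from 0.0987 to 0.426 CPM in WSB (median 0.187) and from 21.3 to 39.3 CPM in B6 (median 26.8). Its log2 fold change was -7.02 ± 0.21 (SE, adjusted p = 4.6e-14). PWK, at 0.564 CPM, was nearest to WSB among the other strains, and the rest lay between 2.46 and 17 CPM. H2-Ab1 was at 3.52 ± 1.14 against 23 ± 4.33 CPM (-2.70 ± 0.16, adjusted p = 4.31e-10) and H2-Aa at 8.96 ± 2.55 against 35.2 ± 7.83 CPM (-1.97 ± 0.16, adjusted p = 2.79e-08). Cd74, the chaperone of class II molecules, was at 17.3 ± 3.22 against 67.0 ± 13.8 CPM (-1.95 ± 0.13, adjusted p = 1.92e-09). Ciita, which encodes the master activator of these genes, was at 0.595 ± 0.215 against 2.10 ± 0.516 CPM (-1.81 ± 0.22, adjusted p = 5.44e-06). For each of the 8 members every WSB library lay below every B6 library, which held for 6.93% of all genes.

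Of 25 tested genes of MHC class I and antigen processing, 15 were lower in WSB, 2 higher and 8 did not pass, with a median of -0.635. The shares of all genes were 15.0% lower and 14.5% higher. Without WSB_1 the numbers were 20 lower and 2 higher, against 21.9% and 21.8% of all genes, with a median of -0.895. The classical class I genes H2-D1 and H2-K1 have near-identical sequence, and their sum ran from 22.5 to 93.9 CPM in WSB and from 186 to 276 CPM in B6 (-2.77 ± 0.26, adjusted p = 2.08e-07). The nonclassical pair H2-Q6 and H2-Q7, summed with a further copy, was at 1.21 ± 0.885 against 42.3 ± 9.39 CPM (-5.08 ± 0.31, adjusted p = 4.36e-10). B2m, which encodes the light chain shared by all class I molecules and lies on chromosome 2, was at 77.3 ± 31.6 CPM in WSB and 158 ± 27.1 CPM in B6 (-1.04 ± 0.18, adjusted p = 0.00023). The B2m groups overlapped through WSB_1 at 154 CPM, and the other WSB libraries lay between 62.1 and 77.3 CPM, below the lowest B6 library at 119 CPM. Nlrc5, which encodes the activator of class I genes, was at 0.806 ± 0.411 against 7.24 ± 2.17 CPM (-3.14 ± 0.26, adjusted p = 3.73e-08).

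The interferon-induced genes were lower together. Of 42 tested members of the interferon response list, 32 were lower in WSB, 1 was higher and 9 did not pass, with a median log2 fold change of -0.80. Among all genes tested, 15.0% were lower and 14.5% higher. Without WSB_1 there were 36 lower and 2 higher, against 21.9% and 21.8% of all genes, with a median of -0.89. For Rsad2 and Ifit1, both antiviral effector genes, the 250 bases upstream of the annotated start are shown here with 1 motif marked, since these genes share a class of control element. The sequences are from RefSeq (build GRCm38.p6), run 5′ to 3′ on the gene's strand and are those of the reference strain; the WSB alleles were not analysed here. They lie at chr12:26456453-26456702 on the minus strand for Rsad2 and at chr19:34640639-34640888 on the plus strand for Ifit1. Capitals mark the core of the interferon-stimulated response element, searched as GAAA, any 2 bases and GAAA again, or on the other strand TTTC, any 2 bases and TTTC, with overlapping matches allowed.
Rsad2: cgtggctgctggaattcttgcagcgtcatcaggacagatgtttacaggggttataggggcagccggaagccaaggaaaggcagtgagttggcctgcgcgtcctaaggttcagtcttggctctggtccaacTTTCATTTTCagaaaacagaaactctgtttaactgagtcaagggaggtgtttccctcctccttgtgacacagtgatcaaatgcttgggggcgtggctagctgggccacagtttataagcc
Ifit1: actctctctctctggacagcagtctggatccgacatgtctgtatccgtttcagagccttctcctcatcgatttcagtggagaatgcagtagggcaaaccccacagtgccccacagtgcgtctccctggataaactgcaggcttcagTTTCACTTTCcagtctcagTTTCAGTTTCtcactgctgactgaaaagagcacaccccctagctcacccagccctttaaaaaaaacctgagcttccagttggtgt
Of the 32 interferon genes lower in WSB, 24 had a 300-base promoter window in the RefSeq table (250 bases before to 50 after the start), and 12 of these windows (50%) held the motif. It was in 3 of the 6 windows (50%) of the list's other tested members and in 3.49% of the 27025 windows of all genes. Among the 10493 tested genes with a window, 2.98% held the motif. A match describes the letters and is no evidence of binding.

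Rsad2 ran from 2.78 to 6.59 CPM in WSB (median 3.55) and from 18.2 to 28.8 CPM in B6 (median 24.9), a log2 fold change of -2.69 ± 0.16 (adjusted p = 3.44e-10). Ifit1 was at 2.37 ± 0.757 against 6.51 ± 0.888 CPM (-1.45 ± 0.16, adjusted p = 1.27e-06). Neither gene's groups overlapped, although WSB_1 was the highest WSB library for both. The gene of the nucleic acid sensor Zbp1 was at 0.197 ± 0.102 against 1.08 ± 0.467 CPM (-2.44 ± 0.33, adjusted p = 1.76e-05). The ubiquitin-like modifier gene Isg15 was at 0.605 ± 0.494 against 2.25 ± 0.403 CPM (-1.85 ± 0.33, adjusted p = 0.000254), and its groups overlapped only through WSB_1 at 1.74 CPM. Irf7, which encodes a transcription factor that drives interferon production, was also lower (3.33 ± 1.49 against 8.84 ± 1.46 CPM, -1.40 ± 0.20, adjusted p = 3.63e-05). The most abundant member, Ifitm3, did not pass (37.9 ± 19.8 against 36.5 ± 1.96 CPM, 0.05 ± 0.19, adjusted p = 0.87). Without WSB_1 its direction turned, at -0.24 and past the test. WSB_1 was at 86.6 CPM and the other WSB libraries between 27.9 and 34.6 CPM. The member higher in WSB, Ifi204, was lower when summed with its near-identical relatives (-0.69 ± 0.14, adjusted p = 0.000742).

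Immunity-related GTPases, which attack the vacuoles of intracellular pathogens, moved the same way. Of 17 tested members of that list, 13 were lower in WSB and 2 higher, with a median of -0.94 (-0.998 without WSB_1, with the same counts). Among all genes tested, 15.0% were lower and 14.5% higher, or 21.9% and 21.8% without WSB_1. The near-identical genes Tgtp1 and Tgtp2 summed to 2.38 ± 1.22 CPM in WSB against 31.0 ± 10.4 CPM in B6 (-3.69 ± 0.27, adjusted p = 5.23e-09), and Gvin1 with its copies to 26.7 ± 3.59 against 165 ± 39.0 CPM (-2.63 ± 0.14, adjusted p = 9.34e-11). Iigp1 was at 11.5 ± 3.31 against 42 ± 10.9 CPM (-1.86 ± 0.18, adjusted p = 2.84e-07). The 2 members higher in WSB were Gbp8 and Gbp10, and Gbp10 was at 0.05 ± 0.24 once its copies were summed. Among complement genes 10 of 25 were lower and 4 higher, and C3, the central component, was at 106 ± 43.2 against 242 ± 13.4 CPM (-1.20 ± 0.18, adjusted p = 4.03e-05). C4a was higher alone (2.06), but the sum of the near-identical C4a and C4b was lower (-1.33 ± 0.105, adjusted p = 1.57e-08). Masp2, also higher alone (2.61), shares transcript sequence with Tardbp, and their sum did not pass (0.09 ± 0.07, adjusted p = 0.408).

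Macrophage markers moved with these genes. Of 21 tested macrophage markers, 13 were lower in WSB, 1 was higher and 7 did not pass, with a median of -0.34 (16 lower, 1 higher and -0.40 without WSB_1). The shares of all genes were 15.0% lower and 14.5% higher, or 21.9% and 21.8% without WSB_1. The higher marker, Lyz1, did not pass when summed with the near-identical Lyz2 (0.23 ± 0.10, adjusted p = 0.0779). The summed level of the markers ran from 393 to 426 CPM in B6, from 324 to 400 CPM in 7 WSB libraries, and was 443 CPM in WSB_1. Csf1r, the receptor gene that defines the lineage, was at 28.8 ± 2.81 CPM in WSB against 35.8 ± 2.44 CPM in B6 (-0.31 ± 0.07, adjusted p = 0.00148). Adgre1, which encodes the antigen F4/80, was at 6.22 ± 1.48 against 12.3 ± 1.68 CPM (-0.99 ± 0.15, adjusted p = 5.67e-05). Folr2, a marker of resident macrophages, was at 0.442 ± 0.182 against 6.27 ± 0.789 CPM alone, a log2 fold change of -3.79. Summed with Gm10602, which shares part of its transcript sequence on the opposite strand, Folr2 was at -2.51 ± 0.13 (adjusted p = 7.01e-11). Ccr2, a marker of macrophages recruited from monocytes, was at 0.970 ± 0.350 against 3.31 ± 0.941 CPM (-1.77 ± 0.23, adjusted p = 1.01e-05). The part of macrophage number in the class II and interferon results was not tested. Neither was the loss of reads from WSB alleles that differ from the reference, which is that of B6.

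**Figure D3:**
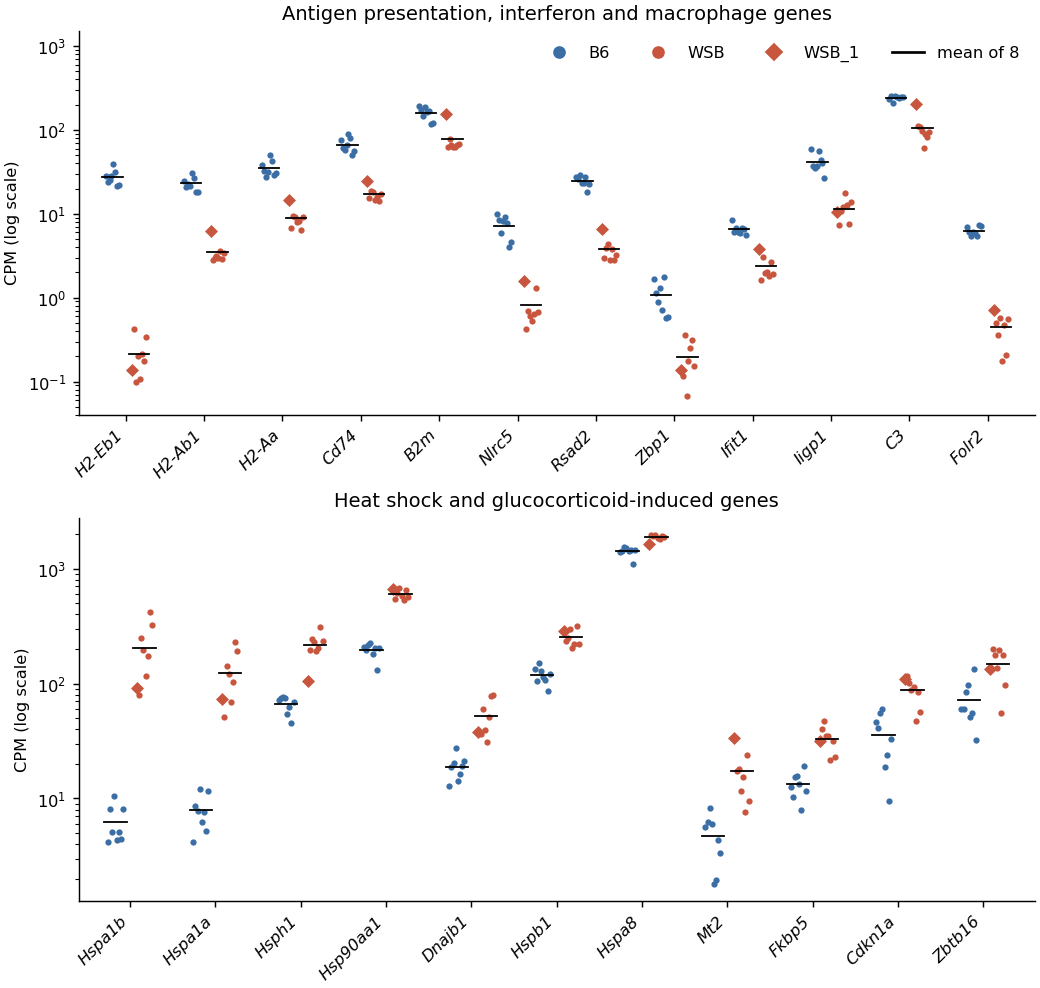
CPM of 12 immune genes (top) and 11 heat shock and glucocorticoid-induced genes (bottom) in each library on log axes, with B6 in blue, WSB in red, WSB_1 as a diamond and the mean of 8 libraries as a black line. All but B2m in the top panel have separate WSB and B6 points, with WSB lower, and all 7 heat shock genes in the bottom panel, Hspa1b to Hspa8, have separate points with WSB higher.

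Chaperone genes were higher in WSB hearts. Of 44 tested genes of the heat shock and unfolded protein response list, 16 were higher, 2 lower and 26 did not pass, where 14.5% of all genes were higher. The median log2 fold change was 0.19. Without WSB_1 the numbers were 24 higher and 2 lower, against 21.8% and 21.9% of all genes, with a median of 0.205. The upstream sequences of Hspa1b, the inducible HSP70, and Hsph1, its nucleotide exchange partner, are shown with the letters of the heat shock element in capitals, since both are chaperone genes of this list that were higher in WSB and whose windows held it (Hspa1a, nearly identical to Hspa1b, is not shown). The motif was searched as GAANNTTC and TTCNNGAA, each of which reads the same on both strands. The sequences are again from RefSeq (GRCm38.p6), 250 bases upstream of the start, at chr17:34959239-34959488 on the minus strand for Hspa1b and chr5:149636337-149636586 on the minus strand for Hsph1.
Hspa1b: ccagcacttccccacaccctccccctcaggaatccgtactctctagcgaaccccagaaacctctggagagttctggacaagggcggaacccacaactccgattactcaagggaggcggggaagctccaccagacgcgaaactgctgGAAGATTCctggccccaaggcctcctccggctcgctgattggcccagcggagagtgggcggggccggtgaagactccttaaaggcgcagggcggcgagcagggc
Hsph1: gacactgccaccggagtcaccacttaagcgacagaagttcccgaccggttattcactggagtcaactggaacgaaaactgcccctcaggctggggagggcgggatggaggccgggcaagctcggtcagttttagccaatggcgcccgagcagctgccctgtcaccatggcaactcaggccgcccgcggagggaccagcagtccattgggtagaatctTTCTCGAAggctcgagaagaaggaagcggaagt
Of the 16 chaperone genes higher in WSB, 11 had a promoter window, and 6 of these (54.5%) held the motif, against 6 of 24 (25%) for the list's other tested members and 15.1% of all windows. Among the 10493 tested genes with a window, 11.5% held it.

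Hspa1a and Hspa1b are near-identical neighbours in the MHC region, and their sum ran from 130 to 646 CPM in WSB and from 8.39 to 22.5 CPM in B6. The sum was 328 ± 181 against 14.2 ± 5.05 CPM (SD, n = 8 each), a log2 fold change of 4.53 ± 0.35 (adjusted p = 1.09e-08). Hspa1b alone, on the scale of all 63 libraries, had strain means of 123 CPM in 129 and 136 CPM in PWK, and between 10.2 and 38.4 CPM in AJ, Cast, NOD and NZO, against 6.38 CPM in B6. WSB and B6 were thus the ends of a range. Hsph1 ran from 106 to 311 CPM in WSB (median 218) and from 45.7 to 77.1 CPM in B6 (median 70.4), with no overlap (1.7 ± 0.17, adjusted p = 3.29e-07). Hsp90aa1, an inducible HSP90 gene, was at 605 ± 56.3 against 196 ± 28.9 CPM (1.63 ± 0.10, adjusted p = 9.17e-10). The co-chaperone gene Dnajb1 was at 51.8 ± 19.2 against 18.8 ± 4.57 CPM (1.46 ± 0.20, adjusted p = 2.27e-05), and the small heat shock gene Hspb1 at 254 ± 40.8 against 118 ± 19.6 CPM (1.10 ± 0.12, adjusted p = 8.87e-07). The constitutive Hspa8, the most abundant member, was at 1868 ± 106 against 1410.0 ± 137 CPM (0.41 ± 0.08, adjusted p = 0.000874). B6_7, which stood apart from the other B6 libraries in clock genes, was the lowest B6 library for Hsp90aa1 (132 CPM) and Hspa8 (1094 CPM). Atf6, a sensor of unfolded protein in the endoplasmic reticulum, was lower in WSB (99.2 ± 29.6 against 178 ± 12.7 CPM, -0.85 ± 0.19, adjusted p = 0.00228).

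Genes induced by glucocorticoids were higher as well, with more spread between libraries. Of 21 tested members 10 were higher in WSB and none was lower, with a median of 0.52, or 0.22 without WSB_1 with the same counts. Among all genes tested, 14.5% were higher and 15.0% lower, or 21.8% and 21.9% without WSB_1. Fkbp5, a chaperone of the glucocorticoid receptor, ran from 21.8 to 46.8 CPM in WSB (median 33.3) and from 7.99 to 19.2 CPM in B6 (median 13), the member of the 10 with no overlap (1.32 ± 0.17, adjusted p = 1.01e-05). The metallothionein gene Mt2 was at 17.2 ± 8.41 against 4.70 ± 2.25 CPM (1.87 ± 0.33, adjusted p = 0.000239), with WSB_1 the highest at 33.4 CPM. The cell cycle inhibitor gene Cdkn1a was at 87.3 ± 24.4 against 35.9 ± 17.8 CPM (1.28 ± 0.30, adjusted p = 0.00282), and the transcription factor gene Zbtb16 at 147 ± 51.3 against 71.7 ± 31.8 CPM (1.03 ± 0.27, adjusted p = 0.00772). The WSB and B6 libraries overlapped for Mt2, Cdkn1a and Zbtb16.

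**Figure D4:**
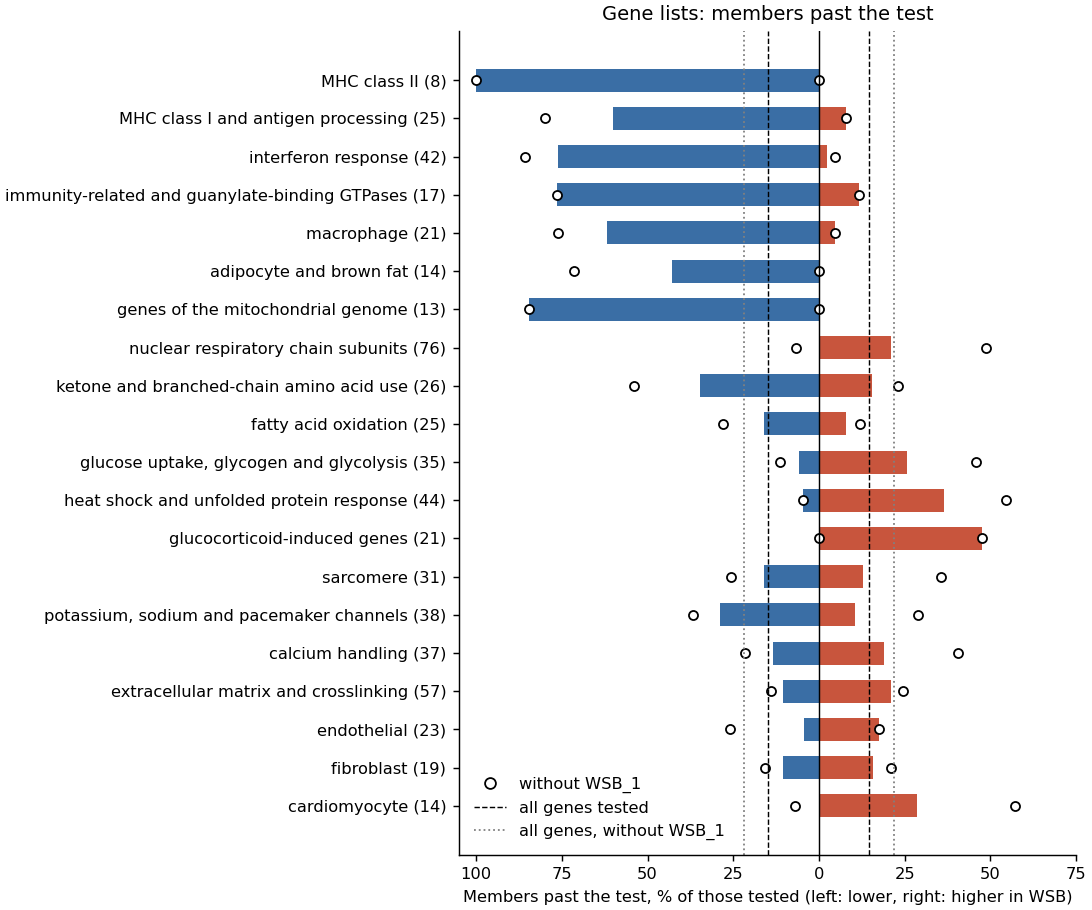
Percent of tested members of 20 gene lists that were lower (left, blue) or higher (right, red) in WSB, with the number tested in brackets, open circles for the same without WSB_1 and dashed lines for all genes tested (15.0% lower, 14.5% higher) and dotted lines for all genes without WSB_1 (21.9% lower, 21.8% higher). The immune lists and the mitochondrial genome reach far beyond the left lines, and the heat shock and glucocorticoid lists beyond the right ones. Other lists also pass the dashed lines, among them fat cell, ketone and channel genes on the left. On the right these include cardiomyocyte, glucose and nuclear respiratory chain genes.

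RNA of the mitochondrial genome took a smaller part of the counts in WSB. Its share ran from 19.6 to 25.2% in WSB and from 27.5 to 31.1% in B6, with WSB_1 the highest WSB library. The mean was 22.4 ± 1.76% against 29.2 ± 1.5% (SD, n = 8 each), a difference of -6.85 percentage points (two-sided exact permutation test, p = 0.000155, the smallest this design can give). Without WSB_1 the difference was -7.25 points. Of the 13 protein-coding genes of the mitochondrial genome 11 were lower in WSB and none was higher, 8 of them with no overlap, and the median log2 fold change was -0.60. Among all genes tested, 15.0% were lower and 6.93% lay below B6 with no overlap. Subunits of complex I led: mt-Nd5 ran from 10783 to 14751 CPM in WSB and from 22053 to 30059.6 CPM in B6 (-0.98 ± 0.10, adjusted p = 3.32e-07), and mt-Nd4 was at 18378 ± 2199.7 against 31093 ± 3577.6 CPM (-0.76 ± 0.10, adjusted p = 7.3e-06). mt-Cytb of complex III was at 26609 ± 2005 against 37077 ± 2926 CPM (-0.48 ± 0.08, adjusted p = 0.000113). Summed with their nuclear copies, mt-Nd5 was at -0.98 and mt-Nd4 at -0.76.

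Nuclear genes of the same complexes did not share this direction. Of 76 tested nuclear subunits of the respiratory chain 16 were higher in WSB and none was lower, with a median of 0.23. Of all genes tested, 14.5% were higher and 15.0% lower. The subunit list depended on WSB_1: without it 37 were higher and 5 lower, with a median of 0.115. The shares of all genes were then 21.8% and 21.9%. The summed level of the list was 37260 CPM in WSB_1 and between 26910 and 30460 CPM in the other WSB libraries, and the part of that library's transcript lengths in this was not tested. Ndufc2, a complex I subunit (chromosome 7, 97400003 to 97407802), was at 105 ± 8.58 CPM in WSB against 65.3 ± 5.31 CPM in B6 (0.69 ± 0.07, adjusted p = 3.39e-07), with no overlap between libraries. Cox6a1 of complex IV was at 46.4 ± 12.7 against 31.8 ± 2.67 CPM (0.54 ± 0.12, adjusted p = 0.00227, and 0.40 without WSB_1). Ndufs6 was at 183 ± 75.5 against 129 ± 4.57 CPM (0.51 ± 0.16, adjusted p = 0.024), and at 0.29 ± 0.04 without WSB_1, which held 369 CPM. The most abundant nuclear subunit gene, Atp5b, did not pass (-0.09 ± 0.08, adjusted p = 0.46). Nnt, the mitochondrial transhydrogenase gene that some B6 substrains carry in a truncated form, was between 383 and 475 CPM in B6 and between 614 and 701 CPM in 7 WSB libraries, but at 115 CPM in WSB_1. With all libraries Nnt did not pass (0.43 ± 0.23, adjusted p = 0.188), and without WSB_1 it did, at 0.59 ± 0.05.

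**Figure D5:**
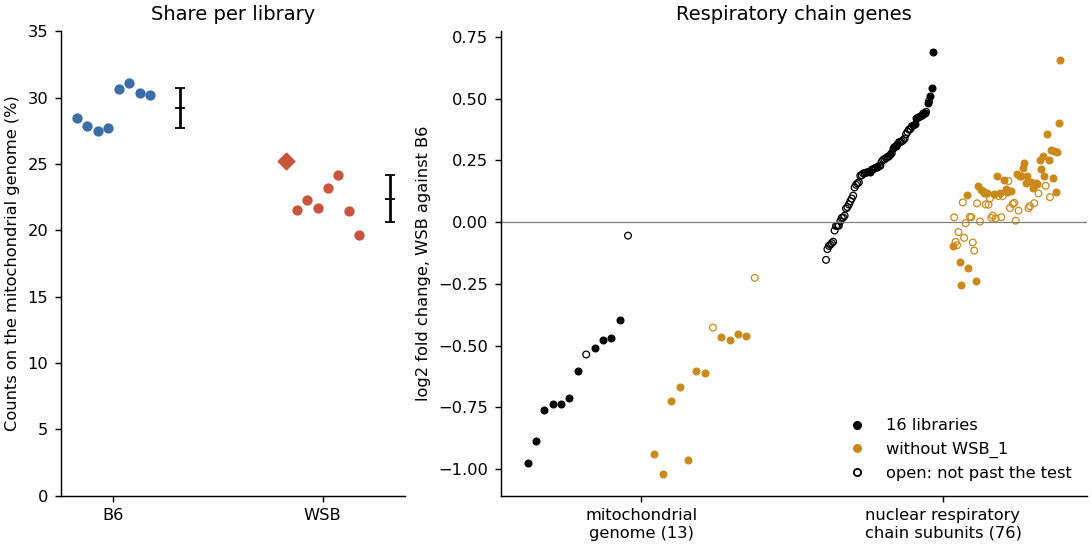
Left, percent of counts on the mitochondrial genome in each library (diamond, WSB_1; bars, mean ± SD of 8 libraries): the B6 libraries lie between 27.5 and 31.1% and the WSB libraries between 19.6 and 25.2%. Right, log2 fold change of 13 mitochondrial and 76 nuclear respiratory chain genes with all 16 libraries (black) and without WSB_1 (orange), ordered by the value with all libraries, where filled points passed the test; all 13 mitochondrial genes lie below 0 with all libraries and most nuclear genes above.

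Genes of fuel use moved in small groups. For ketone and branched-chain amino acid use 9 of 26 tested genes were lower and 4 higher (14 lower and 6 higher without WSB_1), with a median of -0.21. The shares of all genes were 15.0% lower and 14.5% higher, or 21.9% and 21.8% without WSB_1. Mccc1, which encodes a subunit of a carboxylase of leucine breakdown, was at 51.6 ± 11.1 against 109 ± 4.75 CPM (-1.08 ± 0.13, adjusted p = 3.41e-06). Acat1, which encodes the acetoacetyl-CoA thiolase of ketone use, was at 304 ± 71.1 against 475 ± 29.6 CPM (-0.65 ± 0.14, adjusted p = 0.00223). Bdh1, which encodes the dehydrogenase that opens the use of 3-hydroxybutyrate, was higher: 130 ± 30.1 against 63.1 ± 19.7 CPM (1.05 ± 0.19, adjusted p = 0.000277). Of the fatty acid oxidation genes 4 of 25 were lower and 2 higher, a share near that of all genes, or 7 lower and 3 higher without WSB_1. Among them Cpt1a, the liver form of the carnitine transferase, was lower with no overlap (43.5 ± 3.23 against 66.9 ± 5.21 CPM, -0.62 ± 0.06, adjusted p = 4.43e-07), and the isomerase gene Eci1 was higher (186 ± 18.4 against 144 ± 9.53 CPM, 0.37 ± 0.07, adjusted p = 0.000918).

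Of 35 tested genes of glucose uptake, glycogen and glycolysis, 9 were higher and 2 lower, where 14.5% of all genes were higher and 15.0% lower. Without WSB_1 the counts were 16 and 4, against 21.8% and 21.9% of all genes, and the median rose from 0.04 to 0.11. Pfkp, which encodes the platelet form of phosphofructokinase, ran from 75.3 to 158 CPM in WSB (median 113) and from 36.7 to 57.3 CPM in B6 (median 47.0), with no overlap (1.34 ± 0.13, adjusted p = 1.56e-07). The glucose transporter gene Slc2a12 was at 16.7 ± 5.03 against 7.69 ± 0.629 CPM (1.12 ± 0.19, adjusted p = 0.000206), where WSB_1 at 5.10 CPM lay below every B6 library. Pgam1, a glycolytic mutase gene, was at 95.4 ± 17.9 against 61.6 ± 6.19 CPM (0.63 ± 0.10, adjusted p = 0.000144). Pygb, the brain form of glycogen phosphorylase, was lower: 354 ± 115 against 767 ± 44.2 CPM (-1.12 ± 0.23, adjusted p = 0.000908), and -0.96 without WSB_1. G0s2, which encodes an inhibitor of the fat-cleaving lipase ATGL, was at 8.18 ± 1.91 against 17.7 ± 2.94 CPM (-1.11 ± 0.14, adjusted p = 5.02e-06). Angptl4, which encodes an inhibitor of lipoprotein lipase, was higher but variable, from 4.67 to 69.4 CPM in WSB and from 7.43 to 33.3 CPM in B6 (1.20 ± 0.37, adjusted p = 0.0192).

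Of 14 tested fat cell markers, 6 were lower in WSB and none was higher, with a median of -0.59, and without WSB_1 10 were lower, with a median of -1.30. Among all genes tested, 15.0% were lower, or 21.9% without WSB_1. The lipid droplet gene Plin1 ran from 0.0696 to 2.43 CPM in WSB and from 1.38 to 12.8 CPM in B6 (-2.94 ± 0.63, adjusted p = 0.00152). Pck1, which serves glyceride synthesis in fat cells, ran from 0 to 3.96 CPM in WSB and from 3.12 to 28.9 CPM in B6 (-3.66 ± 0.69, adjusted p = 0.000504). For both genes the libraries of the strains overlapped, and 4 B6 libraries, B6_2, B6_4, B6_6 and B6_8, stood above the others. Pck1 was between 20.8 and 28.9 CPM in these 4 and between 3.12 and 6.75 CPM in the other B6 libraries, and Plin1 between 6.68 and 12.8 against 1.38 and 3.80 CPM. The most abundant member, Fabp4, which endothelium also expresses, was at 0.22 and did not pass (adjusted p = 0.544), and turned to -0.17 without WSB_1, which held 1086.3 CPM against 256 to 385 CPM in the other WSB libraries. The stearoyl-CoA desaturase gene Scd1 was at 50.4 ± 28.0 against 215 ± 205 CPM (-2.09 ± 0.54, adjusted p = 0.00618). Scd1 ran from 242 to 620 CPM in the same 4 B6 libraries and from 39.9 to 69.5 CPM in the others, within the WSB range of 29.7 to 114 CPM. The summed level of the fat cell markers ran from 580 to 704 CPM in 7 WSB libraries, was 1761 CPM in WSB_1, and ran from 701 to 1409 CPM in B6, and the part of fat tissue in the lipid gene results was not tested.

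Contractile and stress genes differed in both directions. Of 27 tested cardiac stress and fetal genes 8 were higher and 6 lower, with a median of 0.13, or 11 and 6 without WSB_1. Of 31 tested sarcomere genes 4 were higher and 5 lower, near the shares of all genes, or 11 and 8 without WSB_1. Over all genes 14.5% were higher and 15.0% lower, or 21.8% and 21.9% without WSB_1. Myh6, the main myosin of the adult mouse heart, did not pass with all libraries (0.11 ± 0.15, adjusted p = 0.603), and without WSB_1 it was higher at 0.23 ± 0.04. Myh7, the slow and fetal myosin, was at 121 ± 42.2 against 139 ± 37.8 CPM (-0.20 ± 0.20, adjusted p = 0.491). The natriuretic peptide genes, which rise under wall stress, were at 642 ± 219 against 674 ± 316 CPM for Nppa (adjusted p = 0.883) and 71.6 ± 39.3 against 67.4 ± 14.5 CPM for Nppb (adjusted p = 0.845). These differences were smaller than the spread between libraries. Tnnc1, the cardiac troponin C gene, was higher (1463 ± 355 against 991 ± 40.6 CPM, 0.56 ± 0.12, adjusted p = 0.00115), as was the creatine kinase gene Ckm (1626 ± 137 against 1163 ± 36.7 CPM, 0.48 ± 0.07, adjusted p = 5.75e-05). For Tnnc1, WSB_1 was at 2324.5 CPM and the next highest WSB library at 1429.2 CPM. The fast skeletal light chain gene Myl1 was at 60.4 ± 11.8 against 26.3 ± 5.52 CPM (1.20 ± 0.14, adjusted p = 2e-06), and the skeletal actin gene Acta1 at 227 ± 89.5 against 123 ± 20.2 CPM (0.88 ± 0.19, adjusted p = 0.00149). Of 8 tested skeletal muscle markers 5 were higher and 2 lower, and their summed level ran from 2541 to 3131 CPM in WSB and from 1990.0 to 2168 CPM in B6. The most abundant of these markers is Ckm, given above, which also counts as a cardiomyocyte marker. The higher markers were Actn3, Acta1, Casq1, Ckm and Eno3, and the lower ones Mybpc2 and Atp2a1.

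Ion channel genes differed in both directions. Of 38 tested potassium, sodium and pacemaker channel genes 11 were lower and 4 higher with all libraries, against 15.0% and 14.5% of all genes. Without WSB_1 the counts were 14 lower and 11 higher, against 21.9% and 21.8% of all genes, and the median turned from -0.07 to 0.03. Scn4a, the sodium channel gene of skeletal muscle, ran from 3.66 to 21.1 CPM in WSB (median 12.2) and from 46.5 to 67.7 CPM in B6 (median 60.1), with no overlap (-2.29 ± 0.25, adjusted p = 1.03e-06). Kcnj3, which encodes an atrial channel opened by acetylcholine, was at 63.1 ± 17.6 against 128 ± 25.7 CPM (-1.02 ± 0.18, adjusted p = 0.000276). Scn3b, a sodium channel beta subunit gene, was higher (3.95 ± 1.02 against 1.34 ± 0.442 CPM, 1.56 ± 0.20, adjusted p = 7.47e-06). The pacemaker channel gene Hcn2 was at 22.4 ± 7.02 against 13.6 ± 2.31 CPM (0.72 ± 0.21, adjusted p = 0.0132). Of 37 tested calcium handling genes 7 were higher and 5 lower, near the shares of all genes given above, or 15 and 8 without WSB_1. Besides Cacna1h, the other T-type channel gene of the heart, Cacna1g, was lower by a smaller amount (15.9 ± 3.96 against 21.7 ± 1.90 CPM, -0.45 ± 0.13, adjusted p = 0.0113). Casq1, a calsequestrin gene, was higher (9.87 ± 2.33 against 5.83 ± 1.06 CPM, 0.76 ± 0.14, adjusted p = 0.000474), and Dysf, the dysferlin gene, whose product helps to reseal torn muscle membranes, was at 112 ± 9.76 against 72.7 ± 3.87 CPM (0.62 ± 0.06, adjusted p = 6.83e-07).

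Of 57 tested matrix genes 12 were higher and 6 lower, where 14.5% of all genes were higher and 15.0% lower. Without WSB_1 the counts were 14 and 8, against 21.8% and 21.9% of all genes, and the list is not set apart from the background by these counts. Lox, which encodes the enzyme that crosslinks collagen, was at 11.1 ± 1.96 against 5.15 ± 1.22 CPM (1.11 ± 0.15, adjusted p = 1.27e-05). Mmp3, which encodes the protease stromelysin, was at 1.09 ± 0.575 against 6.09 ± 1.56 CPM (-2.47 ± 0.26, adjusted p = 6.23e-07). Postn, which encodes periostin, a matrix protein of activated fibroblasts and valves, ran from 15.1 to 24.1 CPM in WSB (median 18.0) and from 39.7 to 57.9 CPM in B6 (median 50.5), with no overlap (-1.39 ± 0.12, adjusted p = 2.99e-08). Among the other strains Cast and PWK, at 12.6 and 22.9 CPM, were also low for Postn, and the rest lay between 46.3 and 73.7 CPM. The fibroblast markers as a list stood near the background, with 3 of 19 higher and 2 lower, as did the endothelial markers, with 4 of 23 higher and 1 lower. Without WSB_1 the endothelial counts were 4 higher and 6 lower, and the summed level of these markers was 4101 CPM in WSB_1 and between 1952 and 2432 CPM in the other WSB libraries. For cardiomyocyte markers 4 of 14 were higher and none lower, or 8 and 1 without WSB_1.

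The differing genes were spread over the genome, with denser stretches. Of 229 windows of 10 Mb with at least 20 tested genes, 7 held no gene without overlap between the strains' libraries, and the median share of such genes was 11.2%. The highest share was 34.6%, on chromosome 11 from 40 to 50 Mb, the window of Pttg1, Cyfip2 and Tgtp1. The window of chromosome 17 from 30 to 40 Mb, which holds the MHC genes and Hspa1a and Hspa1b, had 170 tested genes, of which 41 (24.1%) did not overlap, 26 lower in WSB and 15 higher. By chromosome the share was highest on 17 among the nuclear chromosomes (17.7%) and lowest on X among those with more than 8 tested genes (6.26%).

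The other strains divided between the 2 levels. For each of the 1718 genes without overlap, the mean of each of the other 6 strains was placed nearer to the WSB or to the B6 mean, on a log2 scale with a pseudocount of 0.1 CPM. For 273 genes (15.9%) all other strains were nearer to B6, as for Zfp738, and for 73 (4.25%) all were nearer to WSB, as for Pttg1. The rest fell between, most often with 2 strains nearer to WSB (341 genes, 19.8%).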

How the data were processed

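RNA-seq of heart was compared between 8 WSB and 8 B6 libraries, grouped by the strain in their titles. The authors deposited estimated counts per gene for 63 libraries, of which 18.4% of values are not whole within 1e-06, so they were rounded before testing. A second deposited table holds variance-stabilised values on a log2 scale, made by the authors, which served only as an alternative. The submitters' processing notes name DESeq2, without its role, and the genome build GRCm38. Neither an aligner nor a counting tool nor the use of strand was given in the sources used here. The reference genome is that of B6, and the loss of WSB reads at differing alleles was not tested.

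Of 19220 genes, 14613 passed edgeR's filter at a minimum count of 10. The strains were compared with edgeR 4.0.16 (robust quasi-likelihood test, TMM scaling, no covariate) in R 4.3.3, with Benjamini-Hochberg adjustment over all genes tested and a threshold of 0.05. CPM values were scaled by the TMM factors of the 16 libraries, and levels in other strains by those of all 63. Standard errors are the absolute log2 fold change divided by the root of the F statistic. Totals were 24.7 M to 32 M counts per library, and the standard errors include both counting error and spread between libraries. Near-identical copies were found with blastn 2.17.0 (95% identity over at least 50% of the shorter transcript, on either strand), their counts summed and the sum tested. The scripts were tested on simulated data.

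The genes and lists were chosen with earlier results of these data known. Genes were named by fixed rules: the 12 largest fold changes per direction without overlap between libraries, the 6 largest differences in CPM, up to 6 with at most 3 counts in 1 strain, 3 per direction and the most abundant of each gene list, and 9 genes named outright. Hsp90aa1, Dnajb1, Hspb1, Ifit1, Irf7, B2m, H2-K1, H2-Aa, Nlrc5, Ciita, Iigp1, Csf1r, Adgre1, Egf, Lgr6, Il15 and Zbtb16 were added after their values were seen. Items withheld from the text are not reported here. Alternatives changed the scaling, filter, test, samples in the fit and covariates, and left out each library in turn.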

Additional observations from a re-analysis of the deposited data

Results flagged for a closer look

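Within each strain, the lowest or highest library of a gene was set apart where its gap to the nearest library exceeded Dixon's 95% critical share of the range of the 8 libraries. Of 188 groups examined, for 93 genes and the mitochondrial share in both strains, 43 were set apart, where chance gives about 1 in 20. WSB_1 was the library in 33 of them, at the low end in 13 and at the high end in 20. Values without WSB_1 are given above for only a part of these genes, and the cause was not tested.

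WSB_1 was the highest WSB library for Cwc22 at 1109.7 CPM, Ano10 at 297.4, Cit at 33.2, Rab6b at 2.82, Ifi202b at 6.8 and Ly6c1 at 0.0542 CPM. Among immune genes it was the highest for H2-Ab1 at 6.26 CPM, H2-Aa at 14.6, Cd74 at 24.3, B2m at 154.5, Rsad2 at 6.59, Isg15 at 1.74, Irf7 at 6.64, Ifitm3 at 86.6 and C3 at 205.3 CPM. For Ifitm3 this was above every B6 library, and for the other 8 it lay between the other WSB libraries and the B6 mean. It was also the highest for Cox6a1 at 76.8 CPM, Ndufs6 at 368.6, Fabp4 at 1086.3, Tnnc1 at 2324.5 and Mmp3 at 2.33 CPM.

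WSB_1 was the lowest WSB library for Edn3 at 5.26 CPM, Adgre1 at 2.82, Hspa8 at 1636.1, Atf6 at 30.1, Atp5b at 2735.3, Nnt at 114.6 and Mccc1 at 24.6 CPM. The same held for Acat1 at 135 CPM, Slc2a12 at 5.1, Pygb at 78.7, Myh6 at 13422.9, Hcn2 at 6.51 and Glo1, which encodes glyoxalase 1, at 45.4 CPM.

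Of the other WSB libraries, WSB_8 was highest for Stbd1 at 1.39 CPM, WSB_9 for Lgr6 at 12.6 and Scd1 at 113.6, WSB_4 for Cpt1a at 50.7 and WSB_7 for Acta1 at 426.9 CPM. Of the B6 libraries, B6_1 was highest for Ifit1 at 8.36 CPM and B6_3 lowest for C3 at 212 CPM. B6_7 was lowest for Hsp90aa1 at 132 CPM and Hspa8 at 1093.9 CPM, and highest for Pygb at 872.7 CPM.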

How the results depend on the processing

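Leaving out each library in turn gave 3916 to 6374 genes past the test, 1893 to 3179 higher in WSB and 1983 to 3195 lower. The upper ends came without WSB_1, and without any other library the total was 3916 to 4300. At least 2-fold differences ran from 447 to 532 higher and 568 to 652 lower, and the mitochondrial share difference from -7.25 to -6.45 points. Limma voom with quality weights, which gave WSB_1 a weight of 0.0302, called 6530 genes (3220 higher, 3310 lower). At least 2-fold differences numbered 97 and 154 (higher, lower) with limma on the deposited variance-stabilised values, 767 and 934 with no filter on low counts, and 204 and 267 at a mean log2 CPM of at least 1. Of 7 replicate numbers shared by the strains, 2 pairs correlated above 0.1 and 1 number matched best with itself, so the numbers do not pair the samples. With the number as a replicate block, 3263 genes were called (1492 higher, 1771 lower, and 460 and 603 at least 2-fold). Fabp4 turned to -0.17 with voom and ran from -0.17 (without WSB_1) to 0.32 when a library was left out, and Ifitm3 turned to -0.24 with voom and ran from -0.24 (without WSB_1) to 0.13. Summing copies turned C4a to -1.33, Hba-a1 to -0.0805 and Ifi204 to -0.69. Among the 240 named genes past the test, 179 were called in the same direction under every alternative run, 58 were lost under at least 1 and 3 reversed. Of 35 not past it, 17 were called under at least 1. Hcn2 and Scd1 were lost under the replicate block, and Ndufs6 there and with library number as covariate. Where no cause is named, the cause was not tested.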

Other observations

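Glo1, which encodes glyoxalase 1 and varies in copy number among laboratory mice, did not differ between WSB and B6 (log2 fold change -0.01, edgeR adjusted p = 0.96). Of 11 tested red cell genes 5 were lower in WSB and 1 was higher, or 7 and 1 without WSB_1. Near-identical copies bear on 3 of the 6 calls: the higher gene, Hba-a1, and the lower Hba-a2 summed to -0.0805, and the lower Hbb-bt summed with Hbb-bs to -0.21, neither past the test. The list's summed level ran from 1191 to 2031 CPM in 7 WSB libraries, was 3998 CPM in WSB_1, and ran from 1534 to 3031 CPM in B6. Of 7 tested B and plasma cell markers 4 were lower in WSB and none was higher. Of 27 tested immediate early genes, which respond within minutes to stimuli and handling, 5 were lower in WSB, near the share of all genes, and 1 was higher. Of 22 tested clock genes 2 were higher and 2 lower, below the shares of all genes. Over all genes tested, 14.5% were higher and 15.0% lower, or 21.8% and 21.9% without WSB_1.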
